A study of Mus musculus with 11 samples.

Results

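Connexins are the subunits of gap junctions, and 8 of their genes are described here in 6 lung tumors and 5 normal lungs of the same mice: Gja1, Gja3, Gja4, Gja5, Gjb2, Gjb5, Gjb6 and Gjc1. They were taken by name from a table of 24515 genes. Their 13 transcripts were summed by gene. The genes were chosen with their levels in these tumors and normal lungs already known. The tumor and normal levels below are therefore a description, and p-values are given only for the difference between the kinds of tumor, for the change with time and for genes outside the 8. All 8 passed the filter on low counts that left 15175 genes for testing. Gja3 passed it only through the tumors.

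All 5 mice were Gprc5a-/-, lacking the retinoic acid-induced receptor Gprc5a of the lung epithelium, and all had received the tobacco nitrosamine NNK into the peritoneum at 50 mg/kg, 3 times a week for 8 weeks. Each mouse gave an adjacent normal lung. Mouse m335, at 4 months after NNK, gave an ADN and an ADC tumor. Mouse m368, at 6 months, and mouse m350, at 7 months, gave an ADN tumor each, and mice m372 and m378, at 7 months, gave an ADC tumor each. The tags ADN and ADC are not spelled out in the labels and are used as given. The normal lungs are therefore carcinogen-exposed knockout lungs, and neither unexposed nor wild-type lungs were analysed here.

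Total counts ran from 19938822 to 46987587 per library. Gprc5a had at most 19 counts in any library. Xist and Ddx3y, from the X and the Y chromosome, matched within each mouse, with 1 exception. Xist reached 16.7 CPM (counts scaled to a common library size) in the ADN and 8.89 CPM in the ADC tumor of mouse m335, against 1.21 CPM in its normal lung. Ddx3y was at 17.7 to 45.2 CPM in mice m335 and m372 and at 0.454 CPM or less in mice m368, m350 and m378. The mice thus differ in sex by these genes, and fits without the mouse as a block have no term for it. 2 ADC tumors stood apart, that of mouse m372 in cardiac muscle markers (given beside Gja1) and that of mouse m335 in immune markers: its summed level of 5 immune markers was 512 CPM, against 89.3 to 159 CPM in the other tumors. Some results that rest on either are also given without it, but not all, such as the correlations with the genes most like each connexin.

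Connexins assemble in rings into a hemichannel, and the hemichannels of adjoining cells dock into a gap junction that passes ions and small metabolites. Which connexins a cell makes sets which neighbors it can couple to. In lung and vessels, Gja4 (Cx37) and Gja5 (Cx40) are known from endothelium, Gjc1 (Cx45) from smooth muscle and the conduction system, Gja1 (Cx43) from many cell types, and the beta connexins Gjb1 (Cx32), Gjb2 (Cx26) and Gjb6 (Cx30) from epithelia. Gja3 (Cx46) is best known from the fiber cells of the lens.

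Gja3, Gjb2 and Gjb6, each with a higher mean in tumors, lie side by side on chromosome 14, and their promoters are shown because they differ in make-up although the genes are neighbors: Gja3 at chr14:57034460-57058030, Gjb2 at chr14:57098602-57104702 and Gjb6 at chr14:57123301-57133611, all on the minus strand. The sequences are from RefSeq on GRCm38.p6, 300 bases from 250 before to 50 after a transcript start, written on the gene's strand. Capitals mark a match, on either strand, to 1 of 7 motifs searched on both strands. They were the TATA box (TATAAA), the GC box (GGGCGG), the CCAAT box, the AP-1 site (TGANTCA), the TEAD site (GGAATG), the NKX2-1 site (CAAGTG) and the forkhead site (TGTTTAC). No 2 matches overlap in these windows. Gja3 has a downstream start (chr14:57057674-57057973) and an upstream start (chr14:57057981-57058280). The Gjb2 window is chr14:57104653-57104952 and the Gjb6 window chr14:57133562-57133861.
Gja3 downstream start: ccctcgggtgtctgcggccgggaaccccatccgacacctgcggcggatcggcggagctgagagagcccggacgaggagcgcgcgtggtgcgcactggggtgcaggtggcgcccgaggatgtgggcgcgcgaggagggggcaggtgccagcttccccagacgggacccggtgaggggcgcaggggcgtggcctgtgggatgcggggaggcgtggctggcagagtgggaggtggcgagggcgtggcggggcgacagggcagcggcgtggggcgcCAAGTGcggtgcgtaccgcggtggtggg
Gja3 upstream start: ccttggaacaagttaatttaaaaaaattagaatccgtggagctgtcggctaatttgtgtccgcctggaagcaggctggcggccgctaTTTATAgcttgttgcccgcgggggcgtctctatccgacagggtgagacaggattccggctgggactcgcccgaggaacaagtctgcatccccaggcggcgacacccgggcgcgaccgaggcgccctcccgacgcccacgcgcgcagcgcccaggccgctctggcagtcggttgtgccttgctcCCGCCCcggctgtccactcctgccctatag
Gjb2: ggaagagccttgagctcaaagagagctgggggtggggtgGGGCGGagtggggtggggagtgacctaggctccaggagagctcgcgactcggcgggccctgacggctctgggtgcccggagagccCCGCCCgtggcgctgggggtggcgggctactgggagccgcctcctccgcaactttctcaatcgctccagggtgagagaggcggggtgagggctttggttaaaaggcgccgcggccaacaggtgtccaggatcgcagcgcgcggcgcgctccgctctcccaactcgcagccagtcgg
Gjb6: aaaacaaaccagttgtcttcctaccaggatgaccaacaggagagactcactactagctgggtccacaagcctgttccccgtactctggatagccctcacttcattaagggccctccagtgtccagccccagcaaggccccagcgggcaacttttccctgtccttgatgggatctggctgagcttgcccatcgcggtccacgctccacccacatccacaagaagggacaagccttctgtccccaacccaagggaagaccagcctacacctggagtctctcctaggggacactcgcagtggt

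The Gja3 downstream window was 76% G and C with 36 CpG dinucleotides, and held an NKX2-1 motif 22 bases after the start. The upstream window was 63.3% G and C with 29 CpG, and held a TATA box 163 bases before and a GC box 20 bases after the start. The Gjb2 window was 70% G and C with 27 CpG, and held GC boxes 211 and 126 bases before the start. The Gjb6 window had 6 CpG at 57.3% G and C and none of the 7 motifs. Among 32851 promoters of the same length, 13.6% held the TATA box, 35.7% the GC box, 37.4% the CCAAT box, 7.81% the AP-1, 14.7% the TEAD, 13.6% the NKX2-1 and 3.65% the forkhead motif. No motif was shared by all windows of the 3 genes, and the matches are a description of letters only.

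Relative to the normal lungs, 2 of the 8 connexins were higher in the tumors past the threshold used across all genes (Gja3 and Gjb2), 3 were lower (Gja4, Gja5 and Gjc1), and Gja1, Gjb5 and Gjb6 did not pass it. The threshold was an adjusted p of 0.05 in edgeR's quasi-likelihood test with the mouse as a block. Across all 15175 genes, 3.68% passed it as higher and 7.91% as lower, with a median log2 fold change of -0.03, against a median of 0.40 for the 8. On library totals in place of TMM scaling the split over all genes was 359 higher and 1714 lower, compared with 558 and 1201, which moved the tumors by -0.19 on the log2 scale relative to the normal lungs; the same 5 connexins passed in the same directions. The same 5 also did not overlap between tumors and normal lungs; 3.56% of all genes had every tumor above every normal lung and 7.92% every tumor below. Because the genes were chosen on this contrast, nothing is read from these shares.

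**Figure D1:**
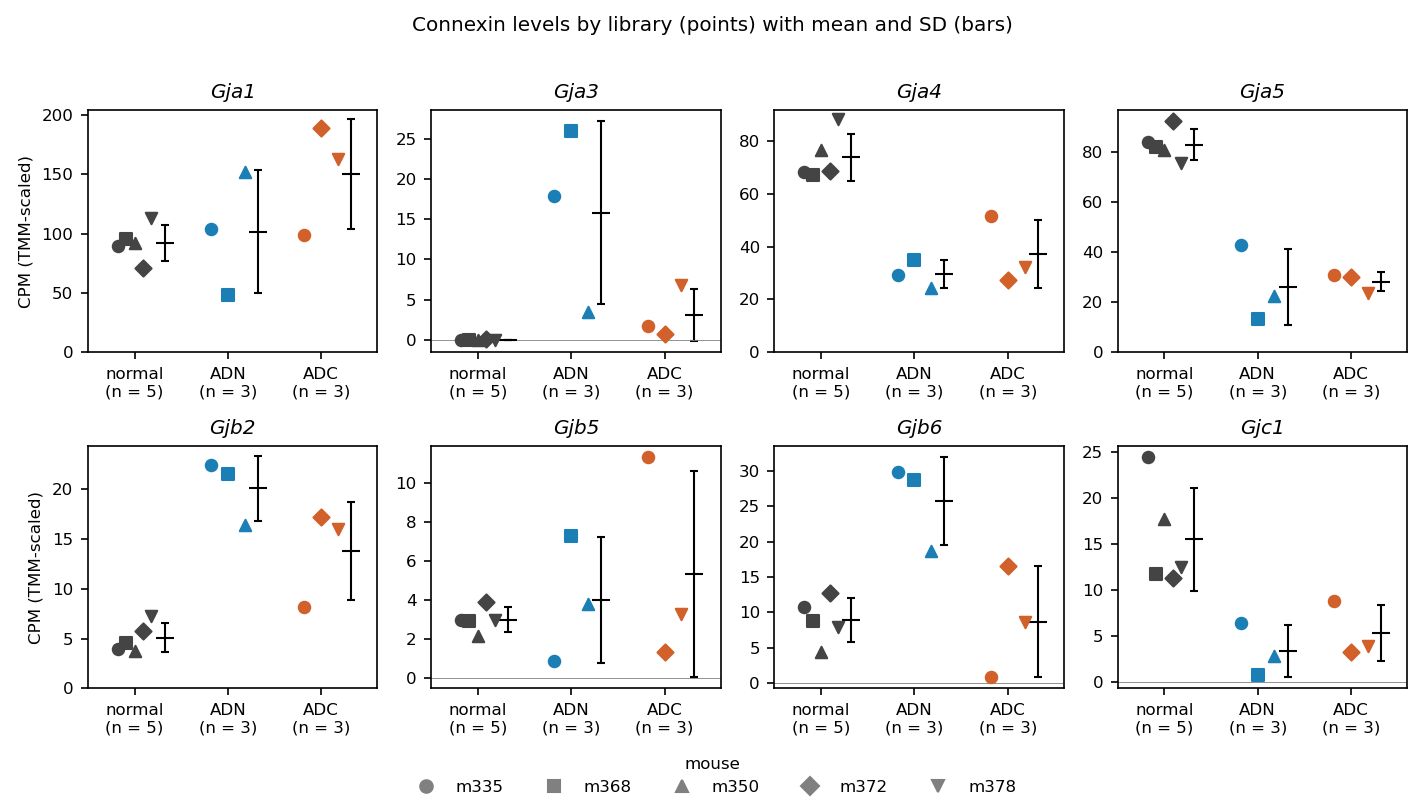
Level of each of the 8 connexins in every library, in CPM on TMM-scaled library sizes, by group; the marker shape gives the mouse and the bar the mean and SD of the group (n = 5, 3 and 3). Gja4, Gja5 and Gjc1 lie lower and Gja3 and Gjb2 higher in all 6 tumors than in any normal lung, while Gja1, Gjb5 and Gjb6 overlap.

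Gja3 was close to absent from the normal lungs and present in every tumor. It was at 0 in 4 normal lungs, where a count of 0 allows up to 0.085 to 0.0932 CPM (3 counts), and at 0.0454 CPM, 1 count, in that of mouse m372. The ADN tumors of mice m335, m368 and m350 held 17.9, 26.0 and 3.50 CPM, and the ADC tumors of mice m335, m372 and m378 held 1.66, 0.764 and 6.83 CPM. The tumors thus spanned a 34.0-fold range, with the highest levels in the ADN tumors of mice m335 and m368, and the ADN and ADC tumors overlapped.

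Summed over libraries, Gja3 had 1633 counts in tumors and 1 in normal lungs, a ratio of 1387 per scaled library size with an exact 95% interval from 249 to 54824, which covers counting error only. Without the ADN tumor of mouse m368 the ratio was 894. The fitted log2 fold change was 9.59 ± 1.31 (SE, 6 tumors and 5 normal lungs) and depends on the prior count. For the lens, 7 fiber cell markers summed to 0.989 to 5.74 CPM in the normal and 3.14 to 7.32 CPM in the tumor libraries; 2 of the 7 were tested and neither passed the threshold, and the part of such cells in the Gja3 level was not tested.

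The deposited table splits Gja3 between its 2 starts. In each library with reads, other than the ADN tumors of mice m335 and m368, the downstream transcript held 62.4% to 62.6% of the gene's counts, also where the gene had 1 count. Since this share was the same at every depth, it was not used to compare the starts. The downstream transcript held 90.0% in the ADN tumor of mouse m335 and 65.2% in that of mouse m368.

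Gjb2, a connexin of many epithelia known for its part in inherited deafness, ran from 3.74 to 7.31 CPM in normal lungs (median 4.60). It was at 22.4, 21.5 and 16.4 CPM in the ADN tumors of mice m335, m368 and m350, and at 8.15, 17.2 and 16.0 CPM in the ADC tumors of mice m335, m372 and m378. Each tumor exceeded its own normal lung, by 1.03 to 2.48 on the log2 scale, and the lowest tumor was the ADC tumor of mouse m335. The fitted log2 fold change was 1.81 ± 0.32 (SE).

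Gjb6, the neighbor of Gjb2 and its partner in mixed channels of the inner ear, was at 4.45 to 12.8 CPM in normal lungs (median 8.83). The ADN tumors of mice m335, m368 and m350 held 29.8, 28.7 and 18.6 CPM, and the ADC tumors of mice m335, m372 and m378 held 0.879, 16.6 and 8.65 CPM. The ADN tumors lay above all normal lungs, while of the ADC tumors that of mouse m372 lay above them, that of mouse m378 among them and that of mouse m335 below every other library. The log2 fold change over all tumors was 0.91 ± 0.71 (SE); without that ADC tumor it was 1.20 ± 0.32 (SE).

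Gjb5, an epidermal connexin, was low throughout, at 2.13 to 3.90 CPM in normal lungs. The ADN tumors of mice m335, m368 and m350 held 0.870, 7.29 and 3.78 CPM, and the ADC tumors of mice m335, m372 and m378 held 11.3, 1.34 and 3.28 CPM. Tumors lay on both sides of the normal lungs, 4 above and 2 below their own. The log2 fold change was 0.43 ± 0.69 (SE), and -0.13 ± 0.56 with the ADC tumor of mouse m335, the highest library, left out.

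The vascular connexins were lower in all 6 tumors than in any normal lung. Gja4 was at 66.9 to 88.3 CPM in normal lungs (median 68.5), at 29.1, 35.0 and 24.4 CPM in the ADN tumors of mice m335, m368 and m350, and at 51.7, 27.2 and 32.4 CPM in the ADC tumors of mice m335, m372 and m378. Its log2 fold change was -1.20 ± 0.21 (SE). The ADC tumor of mouse m335 kept the highest tumor level.

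Gja5 was at 75.6 to 92.8 CPM in normal lungs (median 82.2), the narrowest spread among the 8 relative to its mean. It was at 43.0, 13.3 and 22.6 CPM in the ADN tumors of mice m335, m368 and m350 and at 31.0, 30.2 and 23.8 CPM in the ADC tumors of mice m335, m372 and m378. Its log2 fold change was -1.75 ± 0.22 (SE). The ADC tumors lay close together and inside the range of the ADN tumors.

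Gjc1 was at 11.3 to 24.4 CPM in normal lungs (median 12.5), with the normal lung of mouse m335 the highest. It was at 6.43, 0.803 and 2.89 CPM in the ADN tumors of mice m335, m368 and m350 and at 8.79, 3.25 and 3.95 CPM in the ADC tumors of mice m335, m372 and m378. Its log2 fold change was -2.25 ± 0.35 (SE). Both tumors of mouse m335 were the highest of their kind, as was its normal lung.

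Gja1, a connexin of many tissues and the main one of heart muscle, did not separate the groups. It was at 71.1 to 113 CPM in normal lungs (median 92.1), at 104, 48.5 and 152 CPM in the ADN tumors of mice m335, m368 and m350, and at 99.3, 189 and 163 CPM in the ADC tumors of mice m335, m372 and m378. It exceeded the own normal lung in 5 of 6 tumors, and differed by -0.97 on the log2 scale in the remaining one, ADN of mouse m368. The log2 fold change was 0.37 ± 0.30 (SE). The highest Gja1 level was in the ADC tumor of mouse m372, which also stood apart in cardiac muscle markers: its summed level of 9 of them was 774 CPM, against 8.57 to 122 CPM in the other tumors and 19.3 to 74.1 CPM in normal lungs, with Nppa, the atrial natriuretic peptide, at 311 CPM. None of the 9 was at 0 throughout. Without that tumor the log2 fold change of Gja1 was 0.13 ± 0.29 (SE), and the part of heart muscle in its level was not tested.

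**Figure D2:**
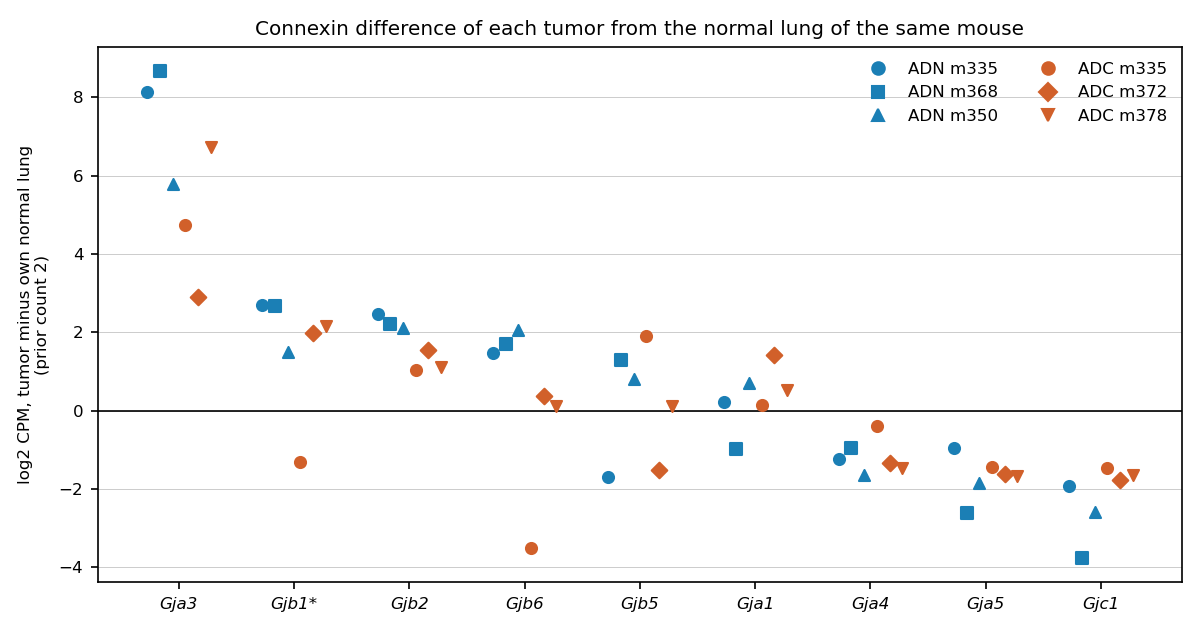
Difference of each tumor from the normal lung of its own mouse in log2 CPM (prior count 2), for the 8 connexins and for Gjb1, marked with an asterisk; color gives the kind of tumor and shape the mouse. Gja3 and Gjb2 lie above 0 and Gja4, Gja5 and Gjc1 below 0 in all 6 tumors, and the ADC tumor of mouse m335 lies apart for Gjb1 and Gjb6.

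Levels of vessel and stroma markers moved with the vascular connexins. Of 14 endothelial markers, 12 fell in tumors and none rose, with a median log2 fold change of -2.36, and their summed level was 3900 to 6280 CPM in normal lungs against 867 to 1530 CPM in tumors. By p the leading genes that fell were Ptprb, Calcrl, Vwf, Cldn5, Tek and Egfl7, and none of the 14 was at 0 throughout. In bulk tissue, fewer cells of a type and less RNA per cell cannot be told apart, and the part of endothelial loss in the levels of Gja4 and Gja5 was not tested.

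Within each tumor, Gja4 was less reduced than the median endothelial marker, by 0.43 to 2.66 on the log2 scale, in 6 of 6 tumors. The difference was widest in the ADC tumor of mouse m335, which had the lowest endothelial sum and the highest Gja4 level of the tumors. Gja5 was less reduced than that median in 5 of 6. Of 10 arterial markers, 6 fell (Hey1, Dll4, Sox17, Vegfc, Efnb2 and Cxcl12) and 1, Mecom, rose (median log2 fold change -1.36), and their sum was 501 to 736 CPM in normal lungs against 201 to 343 CPM in tumors. Gja5 lay above the median arterial marker in 2 of 6 tumors.

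For Gjc1 the nearest list was smooth muscle and pericyte: 5 of 12 markers fell (Des, Myh11, Notch3, Synpo2 and Lmod1) and none rose, with a median log2 fold change of -1.26 and sums of 518 to 973 CPM in normal lungs against 266 to 507 CPM in tumors. Gjc1 (-2.25 ± 0.35, SE) lay below the fold change of each of these 12 markers, but next to Cnn1 (-2.23 ± 0.75), well within the errors. It lay below their median in 5 of 6 tumors. Of 12 fibroblast markers, 7 fell, led by Mfap4, Pdgfra, Wnt2, Inmt, Tcf21 and Fgf10, and none rose (median -1.61; sums of 3340 to 4850 CPM in normal lungs against 1020 to 1840 CPM in tumors). None of these lists held a gene at 0 throughout. The part of these cells in the Gjc1 level was not tested.

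**Figure D3:**
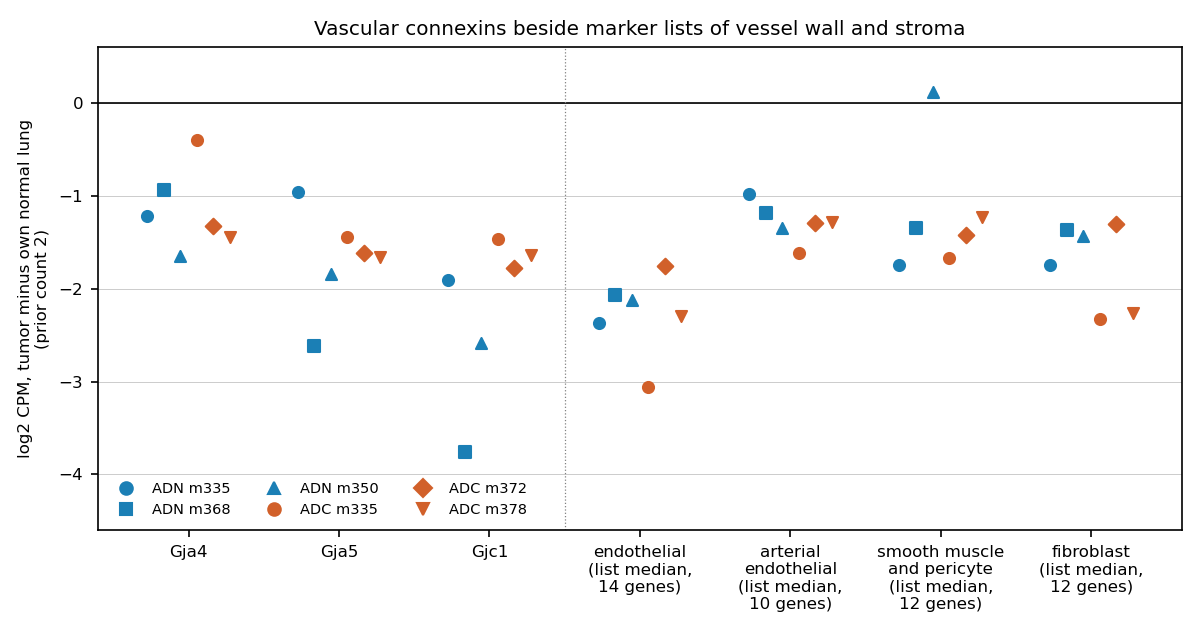
Difference of each tumor from the normal lung of its own mouse in log2 CPM (prior count 2), for Gja4, Gja5 and Gjc1 (left) and the medians of 4 marker lists (right). The endothelial medians run from -3.06 to -1.76, and the Gja4 points from -1.65 to -0.40.

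Epithelial lists are given beside the beta connexins. Of 12 alveolar type 2 markers, 4 rose (Sftpa1, Cxcl15, Lamp3 and Sftpd) and none fell (median log2 fold change 0.84), and the sums were 57200 to 72400 CPM in normal lungs against 50700 to 158000 CPM in tumors, lowest in the ADC tumor of mouse m335, where Gjb2 and Gjb6 were also lowest among tumors. Of 14 squamous and basal markers, 9 were tested, and 1 of these, Ivl, rose; the sums were 42.0 to 84.2 CPM in normal lungs against 65.3 to 163 CPM in tumors. None of the 7 airway markers passed the threshold in either direction. Of 12 alveolar type 1 markers 5 fell (Cav1, Hopx, Spock2, Rtkn2 and Vegfa) and none rose (median -0.94). All 6 mesothelial markers fell (Upk1b, Gpm6a, Upk3b, Msln, Lrrn4 and Wt1; median -2.92). Of 8 cardiac muscle markers tested 1, Myh6, rose, and their values are given beside Gja1. The part of these cells in the beta connexin levels was not tested.

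Gjb1, the main liver connexin, is outside the 8 and is given for comparison. It was at 12.0 to 23.7 CPM in normal lungs, at 94.1, 93.7 and 47.2 CPM in the ADN tumors of mice m335, m368 and m350 and at 5.71, 47.5 and 105 CPM in the ADC tumors of mice m335, m372 and m378. Its log2 fold change was 2.01 ± 0.59 (SE) and did not pass the threshold (adjusted p = 0.0612, edgeR). With the ADC tumor of mouse m335 left out, the only tumor below its own normal lung, it was 2.25 ± 0.21 (adjusted p = 0.000277, edgeR).

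Compared per transcript length, the make-up of the connexin RNA differed between tumors and normal lungs. In normal lungs Gja4 came first (39.7 to 52.4 CPM per kilobase), above Gja1 (23.2 to 36.7) and Gja5 (24.3 to 29.8), whose ranges overlapped. Gjc1 (4.88 to 10.5) overlapped Gjb6 (2.12 to 6.06), and Gjb6 overlapped Gjb2 (1.56 to 3.04), which in turn overlapped Gjb5 (1.24 to 2.27). Gja3 was last, at 0.0164 CPM per kilobase or less.

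In the tumors Gja1 (15.8 to 61.6 CPM per kilobase) came first among the 8, followed by Gja4 (14.5 to 30.7), Gja5 (4.29 to 13.8), Gjb6 (0.418 to 14.2), Gjb2 (3.39 to 9.32), Gja3 (0.276 to 9.39), Gjb5 (0.506 to 6.54) and Gjc1 (0.347 to 3.80), by their means. Each of these ranges overlapped the next. Gjb1, at 3.61 to 66.6, had about the same mean as Gja1, 41.4 against 41.0 CPM per kilobase.

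Of the summed CPM per kilobase of the 8 genes and Gjb1, Gja1, Gja4, Gja5 and Gjc1 together held 83.5% to 87.6% in normal lungs. They held 43.0%, 30.2% and 59.7% in the ADN tumors of mice m335, m368 and m350, and 84.1%, 65.9% and 50.0% in the ADC tumors of mice m335, m372 and m378. The beta connexins Gjb1, Gjb2, Gjb5 and Gjb6 held 12.4% to 16.5% in normal lungs against 15.3% to 62.9% in tumors. The ADC tumor of mouse m335 lay inside the range of the normal lungs on both shares, and the other 5 tumors lay outside it.

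**Figure D4:**
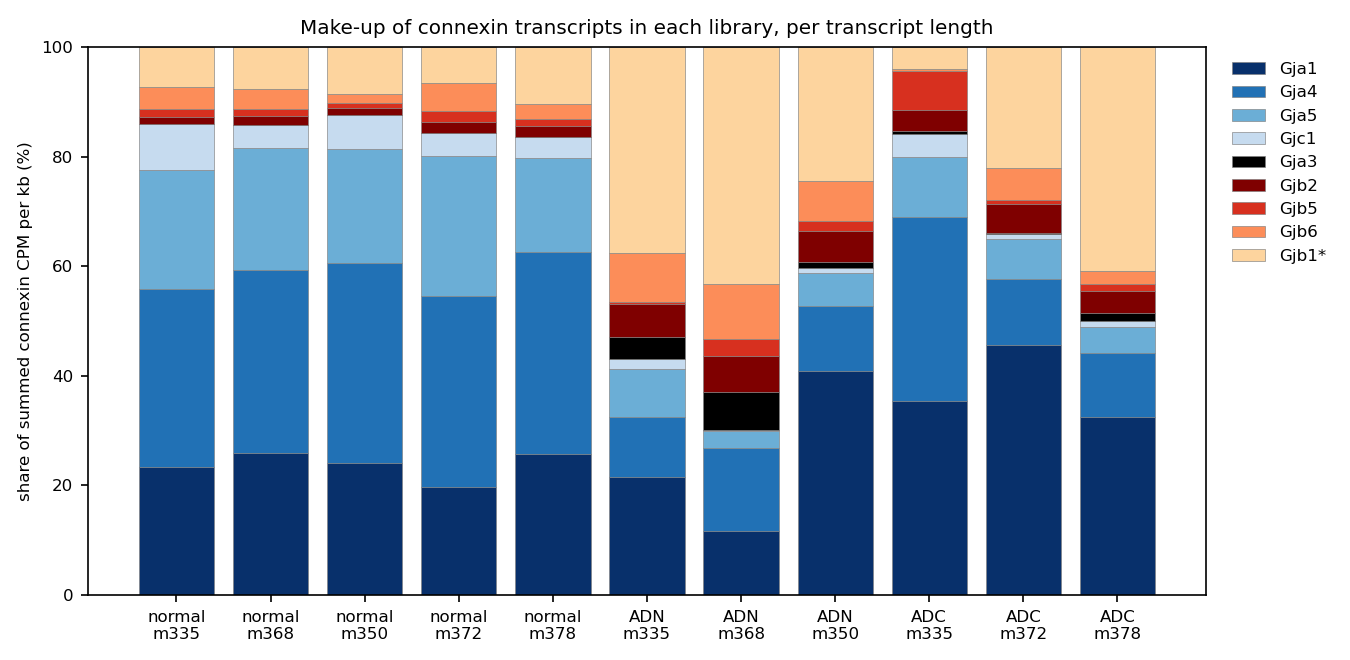
Share of each gene in the summed CPM per kilobase of the 8 connexins and Gjb1 (asterisk), as stacked bars for each library. The blue part (Gja1, Gja4, Gja5 and Gjc1) takes 83.5% to 87.6% in normal lungs and as little as 30.2% in the ADN tumor of mouse m368, with the ADC tumor of mouse m335 at 84.1%.

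The 8 genes lie at 5 places in the genome, and neighbors did not move alike. Gja1 is at chr10:56377300-56390419, Gja5 at chr3:97032402-97053634, Gjc1 at chr11:102799478-102819686 and Gjb5 at chr4:127354809-127358164 (mm10). On chromosome 14 the transcript starts of Gja3 and Gjb2 are 46.7 kb apart and those of Gjb2 and Gjb6 28.9 kb, with log2 fold changes of 9.59, 1.81 and 0.91. Within the tumors, log2 CPM of Gjb2 and Gjb6 correlated with r = 0.981 (n = 6), and with 0.867 without the ADC tumor of mouse m335 (n = 5). Gja3 and Gjb2 correlated less, with r = 0.616 over the 6 tumors. These libraries share scaling and cell make-up, so the values are descriptions.

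On chromosome 4, Gja4 (chr4:127311420-127314039) was lower in all 6 tumors, while Gjb5, whose transcript start is 44.1 kb away, lay on both sides of its normal level. Gja5 and Gjc1, on chromosomes 3 and 11, had r = 0.887 over the 6 tumors. Split by kind of tumor, the log2 fold change over normal lungs along chromosome 14 was 11.19 ± 1.0 (SE) in ADN and 7.62 ± 0.97 in ADC tumors for Gja3. For Gjb2 it was 2.34 ± 0.26 and 1.19 ± 0.26, and for Gjb6 2.03 ± 0.61 and -0.85 ± 0.74. Both kinds were set against the same normal lungs, and Gjb6 was the one gene of the 3 whose fitted values had opposite signs. The ADC value of Gjb6 rests on the tumor of mouse m335, which differed from its own normal lung by -3.51 on the log2 scale; the ADC tumors of mice m372 and m378 differed by 0.37 and 0.11.

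**Figure D5:**
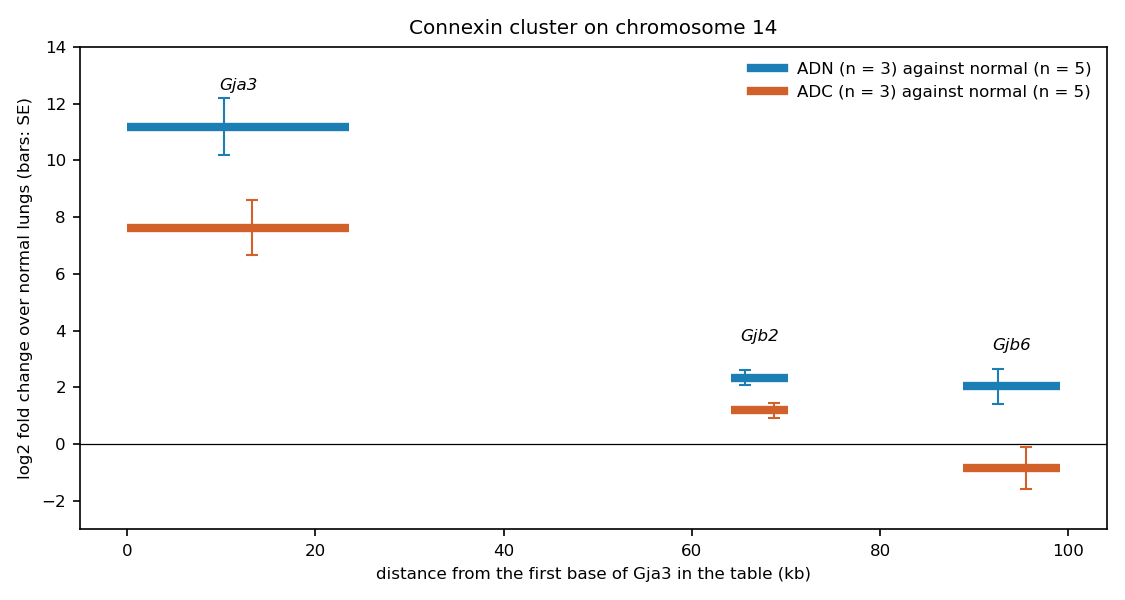
Log2 fold change over normal lungs (bars, SE) of the ADN tumors (blue, n = 3) and ADC tumors (orange, n = 3) against position in kb along the chromosome 14 connexin cluster, with gene bodies as thick lines. Gja3 stands at 11.19 and 7.62, Gjb2 at 2.34 and 1.19 and Gjb6 at 2.03 and -0.85, the ADN value being the higher one each time; the ADC value of Gjb6 rests on the tumor of mouse m335.

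Of the tested genes other than connexins whose lowest coordinate lay within 150 kb of that of one of the 8, only Higd1b, a neighbor of Gjc1 at 36.8 kb, passed the threshold (-1.34 ± 0.35, SE; adjusted p = 0.0394, edgeR). Zmym2 near Gja3 (-0.02 ± 0.17, SE) and Acp6 near Gja5 (0.30 ± 0.21) did not. RefSeq places the long noncoding RNAs Gm32912 across the transcript start of Gjb2 and 4930573H18Rik across the end of Gja5; the sources used here do not give the strand setting, and their reads may be counted in these genes.

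The ADC and ADN tumors were then compared. The 8 genes were chosen with earlier results of these libraries known, so their p-values here are not free of that choice. None of the 15175 genes passed the threshold in edgeR (0.0%; 992 had an unadjusted p under 0.05), and so none of the 8. DESeq2's Wald test called 129 genes, Gjb6 among them. Gjb6 averaged 8.7 CPM in ADC and 25.7 CPM in ADN tumors. With the mouse as a block, its fitted log2 difference was -2.89 ± 0.93 (SE, adjusted p = 0.744 in edgeR and 0.0232 in DESeq2). Only mouse m335 gave both kinds of tumor, at 0.879 CPM in ADC and 29.8 CPM in ADN. Without the block, the Gjb6 difference was -1.56 ± 0.72 (SE, adjusted p = 0.481, edgeR). Every ADC tumor was below every ADN tumor, which held for 4.37% of all genes tested. With the block kept and the ADC tumor of mouse m335 left out, the difference was -1.55 ± 0.37 (adjusted p = 0.796, edgeR).

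Gja3 and Gjb2 also had lower ADC means, 3.08 against 15.8 CPM in ADN tumors for Gja3 and 13.8 against 20.1 CPM for Gjb2. With the mouse as a block, the fitted differences were -3.57 ± 1.06 (SE, adjusted p = 0.737, edgeR) for Gja3 and -1.15 ± 0.33 (adjusted p = 0.737) for Gjb2. Without the block they were -2.36 ± 0.87 and -0.55 ± 0.34. The other fitted differences, also with the block, follow. Gjc1 differed by 0.92 ± 0.46 (adjusted p = 0.775), Gja1 by 0.51 ± 0.48 (0.853), Gja4 by 0.39 ± 0.33 (0.838), Gja5 by 0.02 ± 0.37 (0.991) and Gjb5 by 0.83 ± 1.27 (0.908). With 3 tumors a kind these errors leave room for differences, and a p above the threshold does not show that the levels were alike. The signs for Gja4 and Gjb5 turned without the ADC tumor of mouse m335, to -0.17 and -0.95. The Gja1 difference was 0.22 ± 0.47 (adjusted p = 0.908, edgeR) without the ADC tumor of mouse m372.

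The tumor effect was also tested for change per month after NNK, over 4 to 7 months. None of the 15175 genes passed the threshold (0.0%; 578 had an unadjusted p under 0.05, edgeR; DESeq2 called 49), and none of the 8 in either tool. The slopes, on the log2 scale per month, ran from -2.21 ± 2.01 (SE; adjusted p = 0.961) for Gja3 to 0.25 ± 0.23 (0.961) for Gja1. Time rests on few mice, with 1 mouse each at the earlier times. The fit had no term for the kind of tumor, and the 1 tumor at 6 months was ADN, so kind and time are partly mixed. Without mouse m335, the only mouse at 4 months, the slope sets that 1 tumor against those at 7 months. It was therefore not read as a change with time.

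Among 16 genes of gap junction assembly, scaffolding and turnover, 2 rose, 1 fell and 13 did not pass the threshold (median log2 fold change 0.14). Tjp3, a tight junction scaffold, rose by 0.83 ± 0.16 (SE; adjusted p = 0.0119, edgeR) and Cdh1, the epithelial cadherin, by 1.0 ± 0.18 (adjusted p = 0.00886). Cav1, the caveolar protein abundant in endothelium and alveolar type 1 cells, fell by 2.46 on the log2 scale (SE 0.16; adjusted p = 0.000318). Tjp1, the scaffold that binds Gja1, did not pass (adjusted p = 0.0619). Of the pannexins, channel proteins with a similar fold, Panx1 did not pass the threshold; it was at 25.6 CPM in the ADC tumor of mouse m335 and at 6.21 to 10.5 CPM in all other libraries.

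Genes whose levels followed each connexin most closely were sought among 11471 genes that averaged 5 CPM or more, as the highest Pearson correlation of log2 CPM over the 11 libraries. The 6 tumors are among these libraries, so r within the tumors is no separate check of the genes picked. For Gja3 the genes picked were Veph1 (r = 0.983, and 0.962 within the 6 tumors), Pcsk6 (0.979 and 0.910) and Serinc2 (0.972 and 0.845). For Gjb2 they were Sytl5 (0.972 and 0.923), Rai14 (0.968 and 0.925) and Nudt4 (0.964 and 0.918). Veph1 averaged 0.902 CPM over normal lungs and 9.22 over tumors and Sytl5 1.13 and 10.8 CPM, and the correlation over 11 libraries includes that difference between groups.

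For the lower connexins the nearest genes were Vsir, BC028528 and Slc43a3 for Gja4 (r = 0.977, 0.967 and 0.966), Prkg1, Pcdh18 and Ednra for Gja5 (0.972, 0.971 and 0.970) and Rassf1, Hoxb2 and Rcn1 for Gjc1 (0.976, 0.976 and 0.974). Ednra is the endothelin receptor of vascular smooth muscle and Prkg1 its cyclic GMP-dependent kinase. Within the 6 tumors r was 0.875 to 0.901 for the genes of Gja4, 0.843 to 0.928 for those of Gja5 and 0.972 to 0.985 for those of Gjc1. For the connexins that overlapped between groups, they were Echs1, Gde1 and Zzz3 for Gja1 (0.945, 0.942 and 0.936), Sfxn5, Snx33 and Lurap1 for Gjb6 (0.961, 0.945 and 0.935) and Snrpb2, Lsm6 and Naa20 for Gjb5 (0.931, 0.883 and 0.871).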

How the data were processed

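Poly-A RNA of integrity number 7 or higher was sequenced on an Ion Proton, per the labels' protocols. The submitters' processing notes name Partek, STAR 2.4.1d and Bowtie2 2.1.0 with the build mm10; which tool did what, and with which annotation and strand setting, is not given in the sources used here. The deposited values are expected counts for 36285 transcripts, not normalized by the authors. They were summed to 24515 genes and rounded. Genes were filtered with filterByExpr (15175 kept), scaled by TMM and fitted with edgeR 4.0.16 (quasi-likelihood, robust, two-sided, Benjamini-Hochberg over all genes at 0.05) in R 4.3.3 over all 11 libraries, with the mouse as a fixed block; SE came from the F statistic. The method was tested on simulated data. Levels are CPM on TMM-scaled library sizes; per-kilobase values use GENCODE vM21 transcript lengths. The end positions in the table lie 1 base past those of RefSeq and are given without that base. Alternatives included DESeq2 1.42.0 and limma 3.58.1.

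The labels name the mouse of each library, which gives the pairing. Deviations from the group means were correlated within each pair of tumor and normal lung, with r of 0.24, 0.109, 0.00493, -0.0444, -0.0367 and 0.254. The 8 connexins, the marker lists and the tests were chosen with earlier results of these data known. All 8 are named, as are up to 6 genes past the threshold in each list, smallest p first, the neighbors within 150 kb by count and example, and the 3 genes most like each connexin. Nothing in the labels says more of replication than 1 library per tissue piece. Proteins were not used here, and the Gjc1 promoter was not analysed here. Some other connexins and neighbors are not reported here.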

Additional observations from a re-analysis of the deposited data

Results flagged for a closer look

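Among 18 groups checked, each of 5 normal lungs or 6 tumors, 1 held a library far from the others. Chance gives about 1 in 20, which is near this share. Gja3 was at 0.0454 CPM, 1 count, in the normal lung of mouse m372 and at 0 in the other 4 normal lungs. Any single count beside 4 values of 0 is flagged by this rule, so nothing is read from it.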

How the results depend on the processing

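For tumors against normal lungs, 1759 genes passed the threshold with the mouse as a block, and 2242 with no replicate block; DESeq2's Wald test gave 3286, and leaving out 1 library or mouse gave 917 (without the normal lung of mouse m378) to 3377 (without ADC of mouse m335). The 5 connexins Gja3, Gjb2, Gja4, Gja5 and Gjc1 passed in the same directions under all 26 alternatives. Gjb6 also passed, as higher, in 1 of them, without the ADC tumor of mouse m335. As the genes were chosen on this contrast, and Gja3 was kept for testing only through the tumors, these calls are a description and no sign of stability. For ADC against ADN tumors, 0 genes passed; the count was 129 with DESeq2's Wald test, 5 with no filter on low counts, 1 with a mean of at least 1 CPM and 3 with no replicate block, and 0 to 2 when 1 library or mouse was left out, the 2 without the ADC tumor of mouse m335. For the change per month 0 genes passed; the count was 49 with DESeq2's Wald test and 0 to 405 when 1 library or mouse was left out, the 405 without mouse m335. The block changed no call among the 8, but it changed the size of differences between ADC and ADN tumors. Without it Gjb6 was at -1.56 in place of -2.89, Gjb2 at -0.55 in place of -1.15 and Gja3 at -2.36 in place of -3.57. Gja1 (0.57 in place of 0.51) and Gja5 (0.11 in place of 0.02) moved away from 0. For tumors against normal lungs, Gjb1 passed without the block (adjusted p = 0.026, edgeR) or with DESeq2 (adjusted p = 0.00117). The cause of these differences was not tested. Signs turned only for differences that did not pass. For ADC against ADN, Gja5 was -0.02 with DESeq2 size factors or the Wald test; leaving out 1 library or mouse gave -0.26 to 0.66 for Gja5, -0.17 to 0.55 for Gja4 and -1.82 to 1.62 for Gjb5. For the change per month, Gjc1 was 0.21 when the highest transcript stood for the gene; leaving out 1 library or mouse gave -0.21 to 1.84 for Gjc1, -0.23 to 0.92 for Gja5, -0.65 to 0.17 for Gjb2, -1.52 to 0.47 for Gjb5 and -0.90 to 1.40 for Gjb6. At these depths 3 counts equal 0.0692 to 0.136 CPM, so Gja3 in normal lungs is at the limit of detection.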
